A study of Mus musculus with 4 samples.

Results

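The genes described are 10 members of the NF-κB system, taken by symbol from the 32285 genes counted in both expression libraries. They are the inhibitor genes Nfkbia, Nfkbid, Nfkbiz and Bcl3, the subunit genes Nfkb1, Nfkb2, Rel and Relb, the gene of the ubiquitin-editing enzyme Tnfaip3 and the adaptor gene Traf1. Each symbol matched 1 row of the count tables. The libraries hold single cells from B16 melanoma, a mouse tumor line, grown in mice with floxed Vsir, the gene of VISTA, either without Cre (Vsir fl/fl littermates, here WT) or with CD4-Cre (Vsir fl/fl CD4-Cre, here VISTA-KO), on the C57BL/6 background. The methods give an age of 6 to 8 weeks for C57BL6 mice of the tumor models. For these genotypes they state only that mice were age-matched. Both genotypes received a vaccine of a peptide with CpG and R848, agonists of Toll-like receptors (day 3 after tumor inoculation), and anti-CTLA-4 (days 4 and 8). A legend puts the isolation of the cells on day 18 after treatment. Tumors of 5 to 6 mice per genotype went into 1 pool, from which CD4+ and CD8+ cells were taken by enrichment and sorting, (a legend gives another number of pooled tumors), so that each genotype is 1 library and the spread between mice is unknown. CD4-Cre acts from a stage of thymic development at which T cells carry both CD4 and CD8. By design the deletion is thus meant to cover CD8+ as well as CD4+ T cells and to leave VISTA in myeloid cells, tumor and stroma.

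NF-κB proteins are transcription factors that work as dimers of subunits and wait in the cytoplasm of a resting cell bound to inhibitors of the IκB family. Signals from the T cell receptor, costimulatory receptors, TNF receptors or Toll-like receptors lead to destruction of the inhibitor, and the freed dimers enter the nucleus and switch on genes for survival, cytokines and the inhibitors themselves. Several members are therefore both parts of the pathway and among its known targets, which gives the system its negative feedback. In T cells, NF-κB is known for its role in activation and survival and in the development of regulatory T cells.

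Barcodes passed with 600 or more genes and less than 30% of UMIs from mitochondrial genes, which kept 10224 of 10337 barcodes in WT and 9946 of 10085 in VISTA-KO, with medians of 4723 and 4670.5 UMIs per cell. A UMI counts 1 RNA molecule. CD8 cells were those with Cd8a or Cd8b1 but without Cd4 (5482 in WT and 4301 in VISTA-KO), conventional CD4 cells those with Cd4 and no Foxp3 (1661 and 2983), and regulatory T cells those with Foxp3 and Cd4 (1491 and 1260). Cells with 2 or more Siglech UMIs (221 and 138) were counted only as Siglech cells. The T cell genes Cd3d, Cd3e, Cd3g and Trac summed to between 4140 and 4726 CPM (UMIs of the gene scaled to counts per 1e+06 UMIs of the class) in the 3 T cell classes of both libraries. All 9 markers of plasmacytoid dendritic cells, the dendritic cells that make type I interferon, reached 20 CPM in Siglech cells. They summed to 13859 CPM in WT against 15974 CPM in VISTA-KO there, and to 369 to 450 CPM in the T cell classes. Siglech itself is among the 9, at 1784 (WT) and 1810 CPM (VISTA-KO) in Siglech cells. Its part in the count and in both sums was set by the gate, which does not use the other markers. Siglech cells also held T cell genes, with a sum of 1260 CPM in WT against 631 CPM in VISTA-KO. Of 9 myeloid genes 4 reached 20 CPM there, namely Cd74, Tyrobp, Fcer1g and Apoe, while Lyz2, C1qa, C1qb, C1qc and Csf1r did not. Cd8a and Cd8b1 summed to 990 and 716 CPM in Siglech cells. A Foxp3 UMI was held by 41 of 221 WT and 13 of 138 VISTA-KO Siglech cells. The part of T cell RNA in the Siglech values of the members was not tested. Each genotype being 1 library, no difference could be tested, and every interval given is an exact 95% interval that covers counting error only. The libraries share 145 cell barcodes, and leaving these out turned the direction of no member in any class.

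The targeted gene was no lower in the T cells of the library labelled VISTA-KO. Vsir stood at 112 CPM in both libraries of CD8 cells, with a ratio of 0.993 (0.948 to 1.04), and the ratio was 1.06 (0.982 to 1.14) in conventional CD4 and 1.03 (0.960 to 1.11) in regulatory T cells. In Siglech cells it was 0.724 (0.543 to 0.957). Which part of Vsir is deleted, and whether the sequenced ends of its RNA lie outside it, is not given in the sources used here, so that these levels do not check the labels. WT and VISTA-KO below name the libraries as labelled.

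Before the values, the upstream sequences show which members carry the DNA motif of their own factors near a start site. RefSeq on GRCm38.p6 gives windows for 7 of the 10 genes, namely Nfkbia, Nfkbid, Bcl3, Nfkb2, Rel, Tnfaip3 and Traf1. The 250 bases before each start were searched on both strands for the κB consensus, and overlapping matches were counted separately. Of 27025 genes with a window, 2225 (8.23%) held a match, and of the 7 members 5 did. Bcl3 and Traf1 had none in their windows. The sequences below, 5′ to 3′ along the gene with the match in capitals, belong to Nfkbia, the inhibitor with the largest number of UMIs, to Nfkbid, the gene with the largest difference between the libraries, and to Rel and Tnfaip3. The Nfkbia window (chr12:55492648-55492897, minus strand) has 1 match, whose last base lies 20 bases before the start. The Rel window (chr11:23770970-23771219, minus strand) has 2 matches that overlap in all but 1 base, 83 and 82 bases before the start. Tnfaip3 has 2 starts, and the upstream one (chr10:19015411-19015660, minus strand) has matches 116 and 3 bases before it.
Nfkbia: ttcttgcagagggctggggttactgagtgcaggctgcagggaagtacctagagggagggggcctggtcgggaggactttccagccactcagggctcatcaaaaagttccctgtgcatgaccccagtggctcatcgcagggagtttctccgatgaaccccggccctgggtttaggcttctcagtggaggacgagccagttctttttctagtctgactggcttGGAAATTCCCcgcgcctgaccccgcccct
Rel: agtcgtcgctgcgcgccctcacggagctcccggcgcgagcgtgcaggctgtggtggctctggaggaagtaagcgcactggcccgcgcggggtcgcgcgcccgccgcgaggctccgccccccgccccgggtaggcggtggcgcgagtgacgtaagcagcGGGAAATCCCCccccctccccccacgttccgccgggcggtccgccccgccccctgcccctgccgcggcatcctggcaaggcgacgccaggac
Tnfaip3: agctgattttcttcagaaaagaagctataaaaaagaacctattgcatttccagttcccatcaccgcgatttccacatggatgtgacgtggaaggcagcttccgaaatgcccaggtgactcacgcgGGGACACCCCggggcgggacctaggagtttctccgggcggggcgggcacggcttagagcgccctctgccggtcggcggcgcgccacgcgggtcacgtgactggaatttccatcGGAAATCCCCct
Nfkbid has 3 annotated starts, of which the first (window chr7:30421481-30421730, plus strand) and the last have no match. The start in between lies inside the gene and has 2, shown here as stretches of 30 bases (chr7:30422170-30422199 and chr7:30422215-30422244).
Nfkbid, first stretch: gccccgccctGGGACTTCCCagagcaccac
Nfkbid, second stretch: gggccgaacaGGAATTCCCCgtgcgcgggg
All 3 windows of Nfkb2 hold matches, 5 in total, and the stretch of its first window (chr19:46304688-46304717, plus strand) shows a pair that overlap in all but 1 base.
Nfkb2: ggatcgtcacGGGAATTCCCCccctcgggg
A match is a description of these letters and does not show that a factor was bound in these cells.

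Nfkbid, on chromosome 7 of GRCm38.p6 from 30421731 to 30428749, stood apart from the other 9 genes. It encodes an IκB protein of the nucleus that binds dimers on DNA instead of holding them in the cytoplasm, and that is known for its role in the development of regulatory T cells. In CD8 cells its level was 53.4 CPM (51.0 to 55.8) in WT against 121 CPM (117 to 125) in VISTA-KO, for a ratio of 2.27 (2.15 to 2.40). In conventional CD4 cells it was 85.1 CPM in WT against 224 CPM in VISTA-KO, for a ratio of 2.63 (2.44 to 2.84). Regulatory T cells gave 69.3 CPM in WT against 199 CPM in VISTA-KO, and the largest ratio of the 4 classes, 2.87 (2.67 to 3.09). VISTA-KO was thus the higher library in every class, and the counting intervals of CD8 and regulatory T cells do not overlap. With the stricter gates given below, the log2 ratio was larger in conventional CD4 than in regulatory T cells. In Siglech cells, which held less T cell RNA than the T cell classes, the level was 141 CPM in WT against 302 CPM in VISTA-KO, for a ratio of 2.14 (1.85 to 2.46). Whether CD4-Cre had acted in Siglech cells was not tested. Among all genes that reached 20 CPM in either library, ordered by log2 ratio from the highest, Nfkbid was number 19 of 6065 in CD8 cells, 7 of 6261 in conventional CD4 cells, 15 of 6274 in regulatory T cells and 12 of 6405 in Siglech cells.

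The share of cells with an Nfkbid UMI moved with the level. For this measure 2000 UMIs were drawn at random from each cell, so that depth does not set the share, and cells with fewer UMIs were left out, 290 WT and 186 VISTA-KO cells among the CD8 cells. Among CD8 cells a UMI was then found in 9.59% (8.80 to 10.4) in WT against 19.1% (17.9 to 20.4) in VISTA-KO. The shares were 14.2% and 31.0% in conventional CD4 cells, 13.6% and 28.1% in regulatory T cells, and 24.5% and 40.1% in Siglech cells. In each class more VISTA-KO than WT cells had a UMI, and the binomial intervals of the 2 libraries did not overlap. No cell class was taken as lacking the gene, so that the share that free RNA could give was not measured. Without thinning, the difference in CD8 cells was larger, 15.3 percentage points against 9.53. Within each library the order of the classes by level was the same, with Siglech cells highest, then conventional CD4, regulatory T and CD8 cells, and no neighbours in that order had overlapping intervals.

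**Figure D1:**
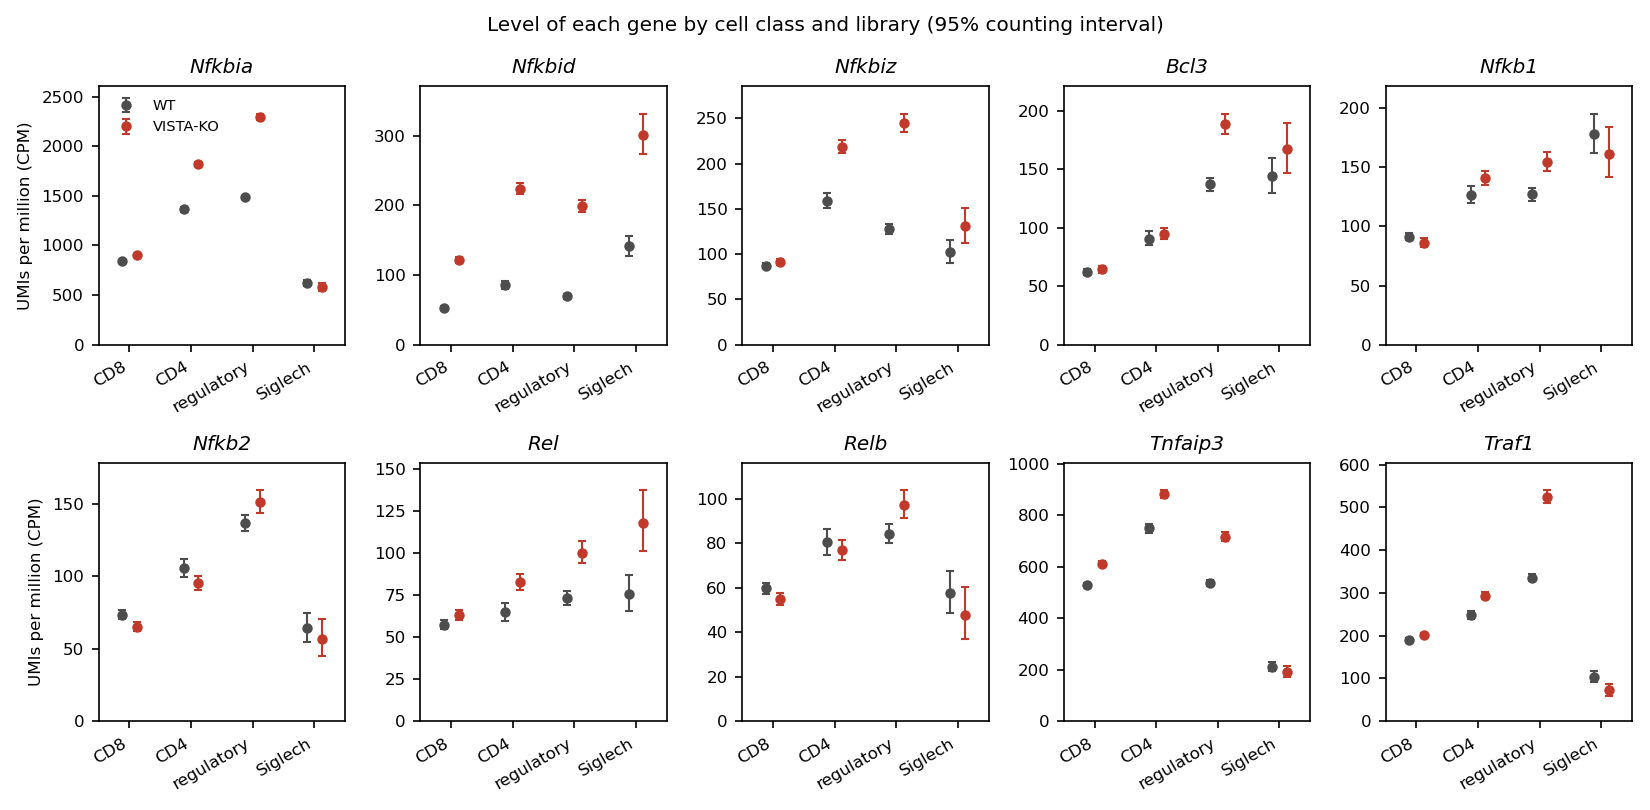
Level of each of the 10 genes in CPM (vertical axis, from 0, with its own scale for each gene) in CD8, conventional CD4, regulatory T and Siglech cells of the WT (grey) and VISTA-KO (red) library, with exact 95% Poisson intervals as bars. Nfkbid is higher in VISTA-KO in all 4 classes (53.4 and 121 CPM in CD8 cells), whereas the VISTA-KO point of Nfkb2 lies below the WT point in CD8, conventional CD4 and Siglech cells.

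Nfkbia encodes IκBα, the inhibitor that holds dimers in the cytoplasm and that is made anew soon after each activation. Its level in CD8 cells was 846 CPM (836 to 855) in WT against 900 CPM (889 to 911) in VISTA-KO, for a ratio of 1.06 (1.05 to 1.08). Conventional CD4 cells held 1364 CPM in WT against 1819 CPM in VISTA-KO, for a ratio of 1.33 (1.31 to 1.36). In regulatory T cells it stood at 1484 CPM and 2297 CPM, a ratio of 1.55 (1.52 to 1.58). The libraries thus lay close together in CD8 cells and apart in both CD4+ classes. Siglech cells went the other way in value, with 625 CPM in WT against 585 CPM in VISTA-KO, and a ratio of 0.936 (0.860 to 1.02) whose interval includes 1. The order of the classes was regulatory T, conventional CD4, CD8 and Siglech cells in both libraries, with no overlap between neighbours.

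Nfkbiz encodes another nuclear IκB protein, one that acts mainly as a coactivator of genes switched on late in an inflammatory response. In CD8 cells it was at 87.3 CPM in WT against 91.3 CPM in VISTA-KO, and the interval of the ratio, 1.05 (0.993 to 1.10), includes 1. The level in conventional CD4 cells was 159 CPM in WT against 219 CPM in VISTA-KO, for a ratio of 1.38 (1.30 to 1.46). Regulatory T cells had 128 CPM in WT against 245 CPM in VISTA-KO, for a ratio of 1.92 (1.81 to 2.03). The order of these classes differs between the libraries, since conventional CD4 cells were highest in WT and regulatory T cells in VISTA-KO. After thinning, the share of regulatory T cells with an Nfkbiz UMI was 24.0% (21.8 to 26.3) in WT against 34.4% (31.7 to 37.2) in VISTA-KO, and that of CD8 cells 16.2% and 15.4%. In Siglech cells the ratio was 1.28 (1.05 to 1.55), from 102 and 131 CPM.

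Bcl3, a nuclear IκB protein that pairs with dimers of the Nfkb1 and Nfkb2 products, had a class-level interval that excluded 1 in regulatory T cells, where it was at 137 CPM in WT against 188 CPM in VISTA-KO, for a ratio of 1.38 (1.29 to 1.46). In CD8 cells it was at 61.9 CPM and 64.6 CPM, in conventional CD4 cells at 90.7 CPM and 94.7 CPM, and in Siglech cells at 144 CPM and 167 CPM. Each of these ratios, 1.04, 1.04 and 1.16, has an interval that includes 1, although single states of CD8 and conventional CD4 cells differed, as given with the states. Regulatory T cells and Siglech cells held the most Bcl3 in both libraries, with overlapping intervals between them.

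Among the subunits, Rel was the only one higher in VISTA-KO in all 4 classes. Its product, c-Rel, is the subunit best known from lymphocyte activation. Its level was at 57.4 CPM in WT against 63.0 CPM in VISTA-KO CD8 cells, a ratio of 1.10 (1.03 to 1.17). Conventional CD4 cells held 64.7 CPM and 82.8 CPM, a ratio of 1.28 (1.16 to 1.41), and regulatory T cells 73.0 CPM and 100.3 CPM, a ratio of 1.37 (1.26 to 1.49). Siglech cells gave the highest ratio, 1.56 (1.26 to 1.93), from 75.8 CPM and 118 CPM. In WT the intervals of neighbouring classes overlapped throughout the order.

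Nfkb1 and Nfkb2 encode precursors that are cut to DNA-binding subunits, and the product of Relb is the usual partner of the Nfkb2 product in the slower, noncanonical branch of the pathway. In CD8 cells all of these were lower in VISTA-KO, Nfkb1 at 91.1 CPM in WT against 86.4 CPM in VISTA-KO, Nfkb2 at 73.5 and 65.1 CPM and Relb at 59.6 and 54.9 CPM, with ratios of 0.948 (0.899 to 0.999), 0.886 (0.834 to 0.940) and 0.921 (0.863 to 0.984). These are small distances, and the share of cells with a Relb UMI was 9.34% in WT and 9.62% in VISTA-KO after thinning to 2000 UMIs, but VISTA-KO minus WT was -1.09 percentage points after thinning to 4000. In regulatory T cells the same genes were higher in VISTA-KO, Nfkb1 at 127 and 155 CPM, Nfkb2 at 137 and 151 CPM and Relb at 84.2 and 97.2 CPM. With stricter gates the log2 ratio of Nfkb2 in regulatory T cells was -0.0031. Conventional CD4 cells lay in between, with ratios of 1.11 (1.04 to 1.19) for Nfkb1, 0.904 (0.834 to 0.980) for Nfkb2 and 0.958 (0.874 to 1.05) for Relb. In Siglech cells the 3 ratios were 0.907, 0.884 and 0.828 and each interval included 1, the one of Relb running from 0.612 to 1.11 on 147 WT and 68 VISTA-KO UMIs.

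Tnfaip3 encodes an enzyme that edits ubiquitin chains on the signaling complexes upstream of NF-κB and so ends the signal. CD8 cells held 528 CPM (521 to 535) in WT against 612 CPM (603 to 622) in VISTA-KO, for a ratio of 1.16 (1.14 to 1.18). Conventional CD4 cells held 750 CPM and 883 CPM, a ratio of 1.18 (1.14 to 1.21), and regulatory T cells 537 CPM and 717 CPM, a ratio of 1.33 (1.29 to 1.38). The level in Siglech cells was far below that of any T cell class, 212 CPM in WT against 192 CPM in VISTA-KO, with a ratio of 0.905 (0.780 to 1.05). In WT, CD8 and regulatory T cells did not differ beyond their intervals.

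Traf1 encodes an adaptor that carries signals from TNF receptor family members such as 4-1BB, and is itself a known NF-κB target. Its level in CD8 cells was 191 CPM in WT against 201 CPM in VISTA-KO, for a ratio of 1.05 (1.02 to 1.09). Conventional CD4 cells held 248 CPM and 294 CPM, a ratio of 1.18 (1.13 to 1.24), and regulatory T cells 336 CPM and 525 CPM, a ratio of 1.56 (1.51 to 1.62). In Siglech cells the order was turned, with 104 CPM in WT against 72.0 CPM in VISTA-KO, for a ratio of 0.690 (0.545 to 0.870) on 267 and 103 UMIs. The T cell genes in Siglech cells were lower in VISTA-KO too, at 631 CPM against 1260 CPM, as were the T cell costimulatory receptors Tnfrsf4 and Tnfrsf9, and the part of T cell RNA in the Traf1 value was not tested. Without cells marked as doublets the log2 ratio of Traf1 in Siglech cells was -0.26 in place of -0.51, and with each cell given the same weight it was -0.16, so that it was no longer past the fold defined next.

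To set the members beside all genes, 5 CPM was added to each level and the log2 of VISTA-KO over WT was taken, and a value of at least 0.5 in size (1.41-fold on that scale) was counted as past the fold. All 10 members reached 20 CPM in either library in every class. In CD8 cells 1 of 10 members was past the fold, Nfkbid at 1.11, beside 1.15% of 6065 genes higher and 0.709% lower, and the median of the members was 0.07 against -0.03 over all genes. In conventional CD4 cells it was again Nfkbid alone, at 1.35, beside 1.41% of 6261 genes higher and 1.47% lower, with a median of 0.24 against -0.04. Regulatory T cells had 4 of 10 members past the fold and higher, Nfkbid at 1.46, Nfkbiz at 0.91, Traf1 at 0.64 and Nfkbia at 0.63, beside 2.77% of 6274 genes higher and 2.44% lower. All 10 members lay above 0 in regulatory T cells, and their median was 0.44 against -0.01 over all genes. In Siglech cells Nfkbid (1.07) and Rel (0.61) were past the fold and higher and Traf1 (-0.51) was lower, beside 3.73% of 6405 genes higher and 5.31% lower, and the median was -0.12 against -0.02. The Siglech median rests on 4 members above and 6 below 0 and was 0.10 when each cell had the same weight.

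**Figure D2:**
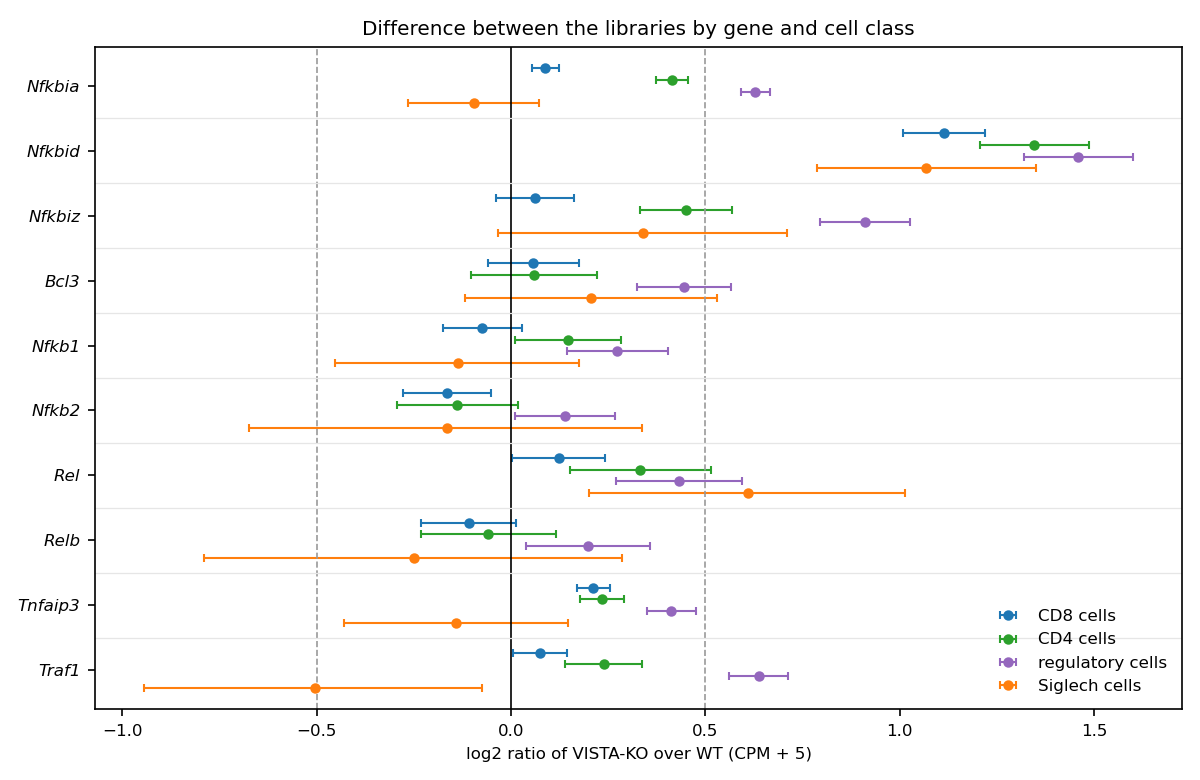
Log2 of the VISTA-KO over the WT level after adding 5 CPM (horizontal axis) for each of the 10 genes in CD8 (blue), conventional CD4 (green), regulatory T (purple) and Siglech (orange) cells, with bars that combine the 95% Poisson intervals of both libraries and dashed lines at 0.5 in either direction. All 4 points of Nfkbid lie to the right of the dashed line, between 1.07 and 1.46, and in regulatory T cells every gene lies above 0.

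Cells were next divided into states by gates on UMIs of marker genes, to ask whether the differences hold among cells of like kind. Of the 14 states described, 6 are of CD8 cells, 4 of conventional CD4 cells, 3 of regulatory T cells and 1 holds all Siglech cells. The gates make no use of the 10 genes.

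Nfkbid was higher in VISTA-KO in every one of these states, with every interval of the ratio above 1. In CD8 cells the smallest ratio, 1.57 (1.34 to 1.84), was that of dividing cells (an Mki67 and a Top2a UMI), at 38.0 CPM in WT against 59.7 CPM in VISTA-KO. The largest, 2.93 (2.55 to 3.37), was that of cells with Pdcd1 and neither Havcr2 nor Tcf7, at 40.6 and 119 CPM. Cells with Havcr2 and Pdcd1, markers of late exhaustion, were at 41.7 and 95.7 CPM, and cells with Tcf7 and Pdcd1, markers of progenitor exhausted cells, at 69.3 and 133 CPM. The highest levels of both libraries were those of cells with Tcf7 or Il7r and none of the markers just named, 85.2 CPM in WT against 200.4 CPM in VISTA-KO. The rest of the CD8 cells lay beside them, at 78.1 and 199.7 CPM, with overlapping intervals in both libraries. Every CD8 state of VISTA-KO except dividing cells lay above the highest CD8 state of WT. In conventional CD4 cells the ratios ran from 2.09 (1.49 to 3.00) in cells with Ccr7 to 2.72 (2.46 to 3.01) in cells with Cxcr6, and in regulatory T cells from 2.25 (1.89 to 2.66) in dividing cells to 2.79 (2.47 to 3.16) in the rest. All ratios of the regulatory T cell states described lay below the class ratio of 2.87.

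Nfkbia split the CD8 cells. Dividing cells held 711 CPM in WT against 548 CPM in VISTA-KO, for a ratio of 0.771, and cells with Havcr2 and Pdcd1 held 749 CPM and 633 CPM, a ratio of 0.845. Cells with Tcf7 or Il7r, genes of memory-type and progenitor cells, had 1072 CPM and 1356 CPM, a ratio of 1.27 (1.21 to 1.32). The overall CD8 ratio of 1.06, taken from UMIs pooled over the class, thus covers states that lie on both sides of 1. Conventional CD4 cells also lay on both sides, since cells with Ccr7, a receptor of cells that home to lymph nodes, had 1635 CPM in WT against 1454 CPM in VISTA-KO, for a ratio of 0.889 (0.821 to 0.964), while the other 3 states had ratios from 1.31 to 1.51. The 3 states of regulatory T cells lay together, between 1.36 in dividing cells and 1.46 in cells with Itgae, the gene of CD103. All of them lay below the class ratio of 1.55.

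In CD8 cells 3 of 10 members (Nfkbid, Tnfaip3 and Rel) were higher in VISTA-KO in all 6 states, beside 5.95% of 6065 genes. Tnfaip3 had every interval above 1, from a ratio of 1.09 (1.03 to 1.16) in cells with Tcf7 and Pdcd1 to 1.37 (1.29 to 1.45) in dividing cells, where it was at 311 CPM in WT against 425 CPM in VISTA-KO. For Rel, which ran from 1.01 to 1.19, the interval excluded 1 only in dividing cells. The noncanonical pair had its lowest CD8 ratios in dividing cells and in cells with Tcf7 and Pdcd1, 0.752 and 0.742 for Nfkb2 and 0.778 and 0.840 for Relb. Nfkb2 also lay on the other side of 1, at 1.46 (1.17 to 1.82) in the rest of the CD8 cells, and without cells with an Mki67 UMI its log2 ratio over all CD8 cells was -0.02 in place of -0.16. Bcl3 had intervals above 1 in the rest of the CD8 cells, 1.67 (1.34 to 2.09), and in cells with Tcf7 or Il7r, 1.27 (1.05 to 1.53). In conventional CD4 cells 3 of 10 members (Nfkbid, Nfkbiz and Rel) were higher in all 4 states, beside 9.69% of 6261 genes. Cells with Ccr7 were few, 124 in WT and 358 in VISTA-KO. Among them the ratio was 0.572 (0.425 to 0.774) for Bcl3, at 144 and 82.5 CPM on 74 and 123 UMIs. For Relb it was 0.610 (0.416 to 0.904), at 85.7 and 52.3 CPM on 44 and 78 UMIs. In regulatory T cells 8 of 10 members were higher in all 3 states, beside 21.3% of 6274 genes, and the exceptions were Nfkb2 and Relb, with ratios of 0.911 and 0.960 in dividing cells. Nfkbiz ran from 1.66 (1.51 to 1.83) in cells with Itgae to 1.85 (1.59 to 2.14) in dividing cells, and Traf1 from 1.11 (1.00 to 1.23) in dividing cells to 1.57 (1.48 to 1.66) in the rest. For Nfkbiz all of these ratios lay below the class ratio of 1.92.

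**Figure D3:**
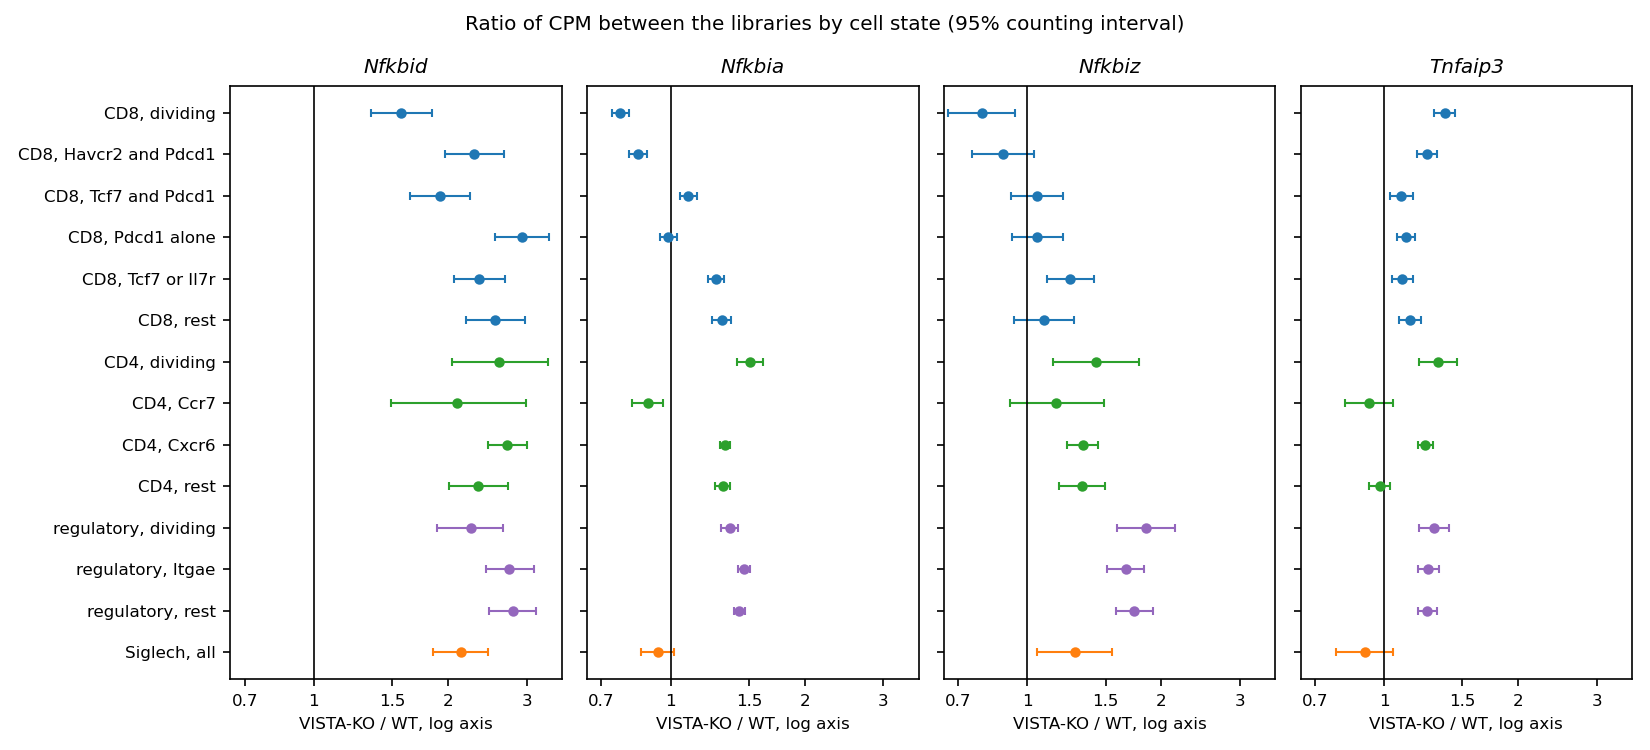
Ratio of CPM of VISTA-KO over WT (horizontal log axis) for Nfkbid, Nfkbia, Nfkbiz and Tnfaip3 in 14 states of CD8 (blue), conventional CD4 (green), regulatory T (purple) and Siglech (orange) cells, with exact 95% intervals as bars and a line at a ratio of 1. All points of Nfkbid lie right of the line, from 1.57 to 2.93, while those of Nfkbia in CD8 cells lie on both sides of it.

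Because 1 clonotype (cells that share both receptor chains) held 1034 of the 5482 CD8 cells in WT and the largest of VISTA-KO 291 of 4301, levels were also taken by the size of the clonotype. The largest clonotypes are different ones in each library, so their values describe those clones. Nfkbid was higher in VISTA-KO at each size, from 66.9 and 138 CPM in clonotypes of 1 cell, a ratio of 2.06 (1.82 to 2.35), over 48.7 and 124 CPM in clonotypes of 2 to 20 cells, a ratio of 2.55 (2.27 to 2.88), to 43.1 and 84.9 CPM in those of over 20 cells, a ratio of 1.97 (1.68 to 2.31). The largest clonotypes held 45.6 CPM in WT against 70.2 CPM in VISTA-KO. Other members differed sharply between those clones. Nfkbia was at 916 CPM in the WT clone and 294 CPM in the VISTA-KO clone, and Nfkbiz at 108 CPM (99.1 to 118) and 18.5 CPM (13.4 to 25.1). Tnfaip3 was at 669 CPM and 532 CPM there, and at each other size it was higher in VISTA-KO. Nfkbia and Nfkbiz were lower in VISTA-KO in the other clonotypes of over 20 cells too. Nfkbia was at 672 and 581 CPM there, and Nfkbiz at 57.97 and 37.66 CPM. Both were higher in VISTA-KO in clonotypes of 2 to 20 cells. In clonotypes of 1 cell Nfkbia was higher in VISTA-KO, and the interval of the Nfkbiz ratio included 1. Without the largest clonotypes the log2 ratio in CD8 cells was 0.19 for Nfkbia in place of 0.09, 0.21 for Nfkbiz in place of 0.06 and 0.29 for Tnfaip3 in place of 0.21, that of Bcl3 was 0.00 in place of 0.06, and the median of the members was 0.15 in place of 0.07.

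**Figure D4:**
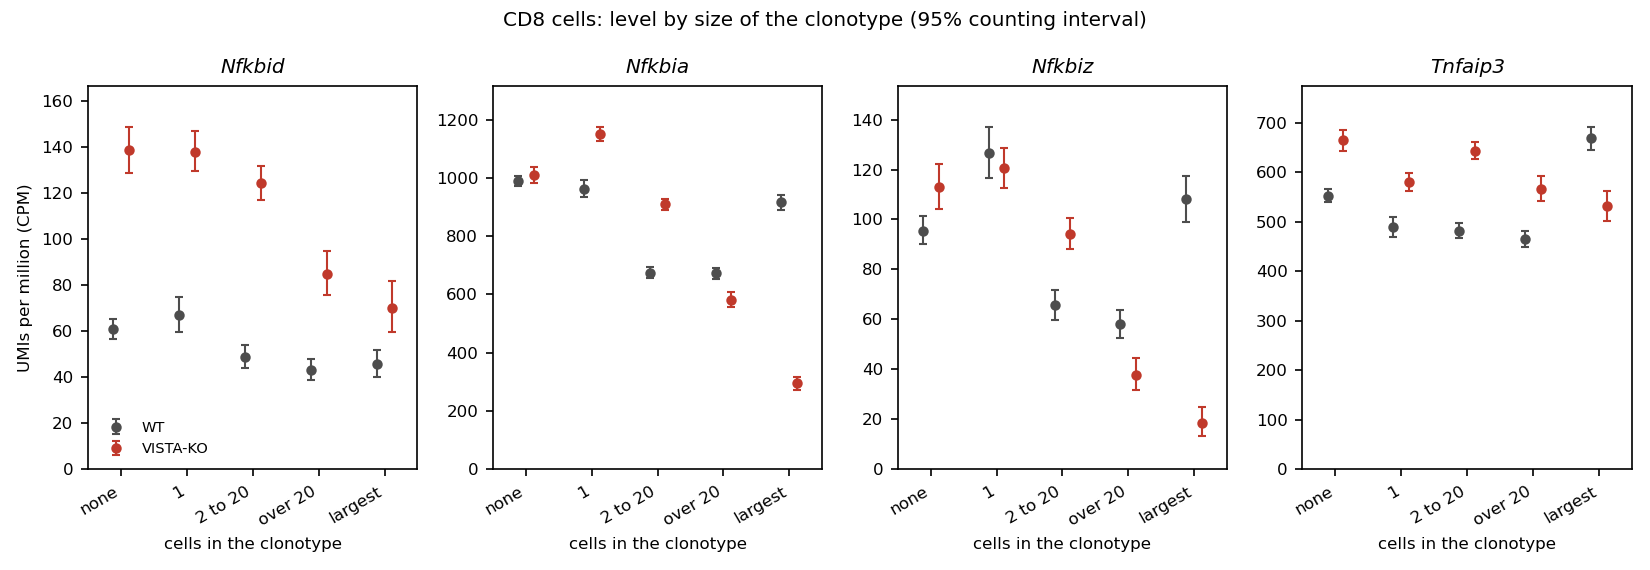
Level in CPM (vertical axis, from 0) of Nfkbid, Nfkbia, Nfkbiz and Tnfaip3 in CD8 cells of WT (grey) and VISTA-KO (red), by the number of cells in the clonotype, with cells without a clonotype at the left and the largest clonotype of each library at the right, and exact 95% Poisson intervals as bars. Nfkbid is higher in VISTA-KO at every size, whereas Nfkbiz is at 108 CPM in the largest WT clonotype and 18.5 CPM in the largest VISTA-KO clonotype.

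In the T cell classes, a larger share of VISTA-KO than of WT cells held UMIs of several members. Such a count rises with the share of any single member, and co-occurrence beyond those shares was not tested. In cells thinned to 2000 UMIs, the share of CD8 cells with UMIs of at least 3 of the 10 genes was 40.5% (39.1 to 41.8) in WT against 44.8% (43.2 to 46.3) in VISTA-KO. For at least 5 genes the shares were 7.68% and 10.1% in CD8 cells, 17.0% and 24.8% in conventional CD4 cells, and 21.7% (19.6 to 23.9) and 36.8% (34.1 to 39.6) in regulatory T cells. The distance was widest in regulatory T cells. In Siglech cells the shares, 7.73% (4.57 to 12.1) and 8.03% (4.08 to 13.9), could not be told apart at this number of cells.

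The rest of the pathway was read from lists by role. Counts past the fold are to be set beside the shares of all genes. These were 1.15% higher and 0.709% lower in CD8, 1.41% and 1.47% in conventional CD4 and 2.77% and 2.44% in regulatory T cells. The other subunits and inhibitors Rela, Nfkbib, Nfkbie and Nfkbil1 had no gene past the fold in any class, and their summed level in CD8 cells was 248 CPM in both libraries. The sums in WT and VISTA-KO were 280 and 288 CPM in conventional CD4, 292 and 333 CPM in regulatory T and 278 and 317 CPM in Siglech cells. Nfkbie in regulatory T cells lay just below the fold, at 0.495. Of 25 kinases and adaptors, which carry the signal from the receptors to the inhibitors, 22 had at least 20 CPM in CD8 cells and none was past the fold, with a median of -0.01. Brakes other than Tnfaip3 gave 0 of 7 in CD8 cells, and 1 of 7 each in conventional CD4 and regulatory T cells. That gene was Zc3h12a in both, an RNase known to degrade inflammatory messages, at 60.6 CPM in WT against 105 CPM in VISTA-KO conventional CD4 cells and at 50.9 and 99.5 CPM in regulatory T cells. Birc3, a ubiquitin ligase and known target, was the 1 kinase or adaptor past the fold in regulatory T cells, at 70.4 and 107 CPM. In Siglech cells 1 of 8 brakes was past the fold, again Zc3h12a, at 46.5 and 68.5 CPM. Of 21 kinases and adaptors there, Birc3 was higher, at 61.7 and 91.6 CPM, and 1 gene was lower. The shares of all genes in Siglech cells were 3.73% higher and 5.31% lower. Zc3h12a and Birc3 were named after their values were seen. Of 8 receptors with at least 20 CPM in CD8 cells, Tnfrsf4, the gene of the costimulatory receptor OX40, was lower in VISTA-KO, at 138 CPM in WT against 73.5 CPM in VISTA-KO, for a ratio of 0.532 (0.505 to 0.560). Tnfrsf4 was also lower in conventional CD4 cells, at 304 and 236 CPM, and in Siglech cells, but higher in regulatory T cells, at 1062 and 1230 CPM. Foxp3 in CD8 cells was at 37.4 and 19.9 CPM. The part of regulatory T cell RNA in the CD8 value of Tnfrsf4 was not tested.

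Known targets outside the 10 genes differed in both directions. In CD8 cells 4 of 16 were past the fold and higher and none was lower, beside 1.15% of all genes higher and 0.709% lower. Their median was 0.31. The 4 were the chemokine gene Ccl4 (1188 CPM in WT against 2075 CPM in VISTA-KO), Gadd45b, a stress-response gene (119 and 203 CPM), the cytokine gene Tnf (42.9 and 67.6 CPM) and Irf4, a transcription factor induced by receptor signals (16.3 and 32.4 CPM). In conventional CD4 cells 5 of 17 were higher and 2 lower, beside 1.41% and 1.47% of all genes. In regulatory T cells 6 of 17 were higher and 2 lower, beside 2.77% and 2.44%. Ccl4 was lower in VISTA-KO in both CD4+ classes, at 734 and 672 CPM in conventional CD4 cells and at 529 and 370 CPM in regulatory T cells, while Gadd45b was higher there, at 165 and 428 CPM. The median of the targets was 0.23 in conventional CD4 and 0.14 in regulatory T cells, so that in regulatory T cells it lay below the 0.44 of the 10 members. In Siglech cells 3 of 15 were higher and 3 lower, and of 11 receptors 1 was higher and 7 were lower. The shares of all genes there were 3.73% higher and 5.31% lower, and the T cell genes were at 1260 and 631 CPM.

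**Figure D5:**
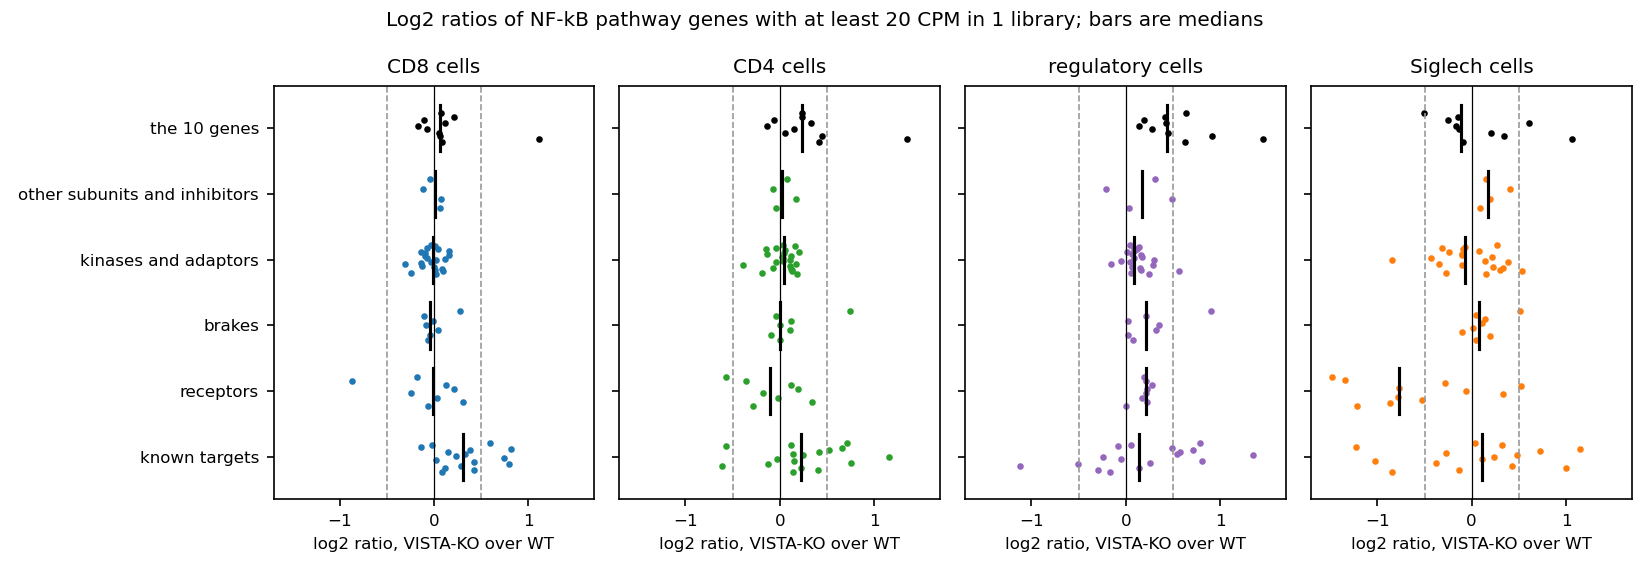
Log2 of the VISTA-KO over the WT level after adding 5 CPM (horizontal axis) for the 10 genes (black points, top) and for 5 lists of other NF-κB pathway genes, in a panel for each cell class, with 1 point per gene that reached 20 CPM in 1 library, a bar at the median and dashed lines at 0.5 in either direction. In CD8 cells the kinases and adaptors lie near 0 (median -0.01) and most known targets lie above 0 (median 0.31). In the other classes the known targets spread past the dashed lines on both sides. Nfkbid is the black point farthest to the right in each panel.

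Several other measures moved with the libraries, and their part in these results was not tested. The list of 10 immediate-early and dissociation genes, among them Fos, Junb and Ier2, summed to 3441 CPM in WT against 4293 CPM in VISTA-KO CD8 cells, 6106 and 8768 CPM in conventional CD4 cells and 4093 and 7006 CPM in regulatory T cells. Of its genes 2 of 9, 2 of 10 and 5 of 10 were past the fold and higher in these classes, and 0, 2 and 2 were lower. The shares of all genes past the fold in these classes are those given above. Regulatory T cells also differed in depth, with medians of 8739 UMIs in WT and 5908 in VISTA-KO, in the share of dividing cells, 269 of 1491 and 103 of 1260, in Cd8a and Cd8b1, which summed to 848 and 387 CPM, and in 9 myeloid genes, which summed to 1402 and 806 CPM with 6 of 6 lower. Without cells with an Mki67 UMI the log2 ratios in regulatory T cells were 0.54 for Nfkbia, 0.78 for Nfkbiz and 0.57 for Traf1, and with the states weighted alike in both libraries they were 0.52, 0.74 and 0.54. The stricter gates for regulatory T cells allow no Cd8a or Cd8b1 UMI and also ask for 2 or more Foxp3 UMIs. With them Nfkbid in regulatory T cells was at 1.29, Traf1 at 0.51 and Tnfaip3 at 0.51. In conventional CD4 cells Cd8a and Cd8b1 summed to 894 and 441 CPM with 2 of 2 lower. There the stricter gates allow no Cd8a or Cd8b1 UMI and also ask for 2 or more Cd4 UMIs. They gave log2 ratios of 0.19 for Nfkbiz in place of 0.45 and 0.29 for Nfkbia in place of 0.41. Tnfaip3 was at 0.13 in place of 0.23, Rel at 0.15 in place of 0.33 and Bcl3 at 0.26 in place of 0.06. Nfkbid was at 1.32. The stricter gates ask CD8 cells for both Cd8a and Cd8b1 and no Foxp3, and Siglech cells for 5 or more Siglech UMIs. Which of these conditions moved the values was not tested. Among CD8 cells, 343 of 5482 in WT and 174 of 4301 in VISTA-KO held a Foxp3 UMI. The 9 myeloid genes summed to 717 and 382 CPM there, with 1 of 6 past the fold and higher and 1 lower. The lower one was Cd74, whose 492 and 170 CPM make up most of the difference between these sums. The higher one was Apoe, at 16.7 and 25.9 CPM. The 5 melanoma genes, RNA of tumor cells, summed to 10.6 CPM in WT against 203 CPM in VISTA-KO CD8 cells and to 5.82 and 197 CPM in regulatory T cells, with 4 of 4 genes higher in each, but to 231 and 16.1 CPM in conventional CD4 cells, with 4 of 4 lower.

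Over the 14 states and both libraries, 28 points that share libraries and differ in depth, the levels of other genes were set against Nfkbia and Nfkbid by Pearson's r of log2(CPM + 5), as a description. Of 5889 genes compared, those nearest to Nfkbia were Rap1gds1 (0.932), Arhgap31 (0.928) and Icos, the gene of a costimulatory receptor (0.927). For Nfkbid they were Irf1, an interferon regulatory factor (0.894), Mbnl1, which encodes a regulator of splicing (0.880), and E430024P14Rik (0.860). Among the members, Nfkbia lay near Traf1 (0.908) and Nfkbiz (0.874) and farther from Nfkbid (0.429), and Nfkbid lay nearest to Rel (0.777) of the 9.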

How the data were processed

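Gene expression and T cell receptors were sequenced from single cells of 1 pool of WT and 1 pool of VISTA-KO tumors. Per the methods, the authors ran Cell Ranger 5.0.0 on GRCm38, and the deposited tables hold UMI counts of each gene in each barcode without normalization, 72098984 in WT and 59916814 in VISTA-KO, and receptor contigs, which served to define clonotypes here. The labels describe a 3′ kit and the methods a 5′ kit.

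Counts were summed per library and cell class with Python 3.11.15, numpy 2.4.6, scipy 1.17.1 and pandas 2.3.3 and scaled to CPM. Intervals are exact 95% Poisson, conditional binomial (ratios) and Clopper-Pearson (shares) intervals. With 1 library per genotype no test was run. Named genes are the 10 members, the list genes past the fold in CD8 cells, and the 3 genes most like Nfkbia and Nfkbid. Zc3h12a, Birc3, Tnfrsf9, the values of Ccl4, Gadd45b and Tnfrsf4 outside CD8 cells, those of Nfkbie, Siglech and Foxp3, the named myeloid genes and the example genes of lists were added after their values were seen. Members, lists and gates were chosen with earlier results of these data known. A state entered with at least 50 cells in each library, which left out regulatory T cells with Il1rl1 and no Itgae (28 and 76 cells). A further state of CD8 cells is not reported here. Doublets were kept, and removed in an alternative that took cells with 2 or more beta chains and the 5% of cells with most UMIs, 8.87% of WT and 10.2% of VISTA-KO cells. The sums were checked on simulated data. Plots used matplotlib 3.10.9.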

Additional observations from a re-analysis of the deposited data

Results flagged for a closer look

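Traf1 differed in opposite directions between cell classes. The log2 ratio, VISTA-KO to WT, was 0.074 in CD8 cells, 0.24 in conventional CD4 cells and 0.64 in regulatory T cells, but -0.51 in Siglech cells. The Siglech value was -0.26 without marked doublets, -0.34 without cells with an Mki67 UMI and -0.16 with each cell given the same weight, none of them past 0.5 in size. With 1 library per genotype the difference between the classes was not tested.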

How the results depend on the processing

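All log2 ratios were recomputed under 11 other settings and under 1 chosen after seeing the data, without barcodes found in both libraries (the weighting of states could not be applied to Siglech cells, which form 1 state). Nfkbid stayed past the fold in every class under each of them, between 1.10 and 1.27 in CD8, 1.21 and 1.39 in conventional CD4, 1.29 and 1.52 in regulatory T and 0.90 and 1.09 in Siglech cells. The median of the members ranged from 0.06 to 0.15 in CD8, 0.11 to 0.30 in conventional CD4, 0.34 to 0.46 in regulatory T and -0.14 to 0.10 in Siglech cells. It was lowest in conventional CD4 cells, and turned in Siglech cells, with equal weight for each cell. That weight also turned Nfkb2 (0.05) and Tnfaip3 (0.16) in Siglech cells, and stricter gates turned Nfkb1 in conventional CD4 cells to -0.04. Other members crossed 0 by very little. The lowest value was -0.0031 for Nfkb2 in regulatory T cells and -0.0002 for Bcl3 in CD8 cells. The highest value of Nfkb1 in Siglech cells was 0.0004. The number past the fold was 1 in CD8 and conventional CD4 cells throughout, 4 to 5 in regulatory T cells and 2 to 3 in Siglech cells. No paired analysis was possible because each genotype has 1 library. Siglech cells had 1430496 UMIs in VISTA-KO, which limits their precision.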
